A study of Mus musculus with 27 samples.

Results

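The strongest contacts between chromosomes were examined in Hi-C of C2C12 cells. The deposited contact matrix was summed from 40 kb bins to 1 Mb bins over the 19 autosomes, and pairs of 1 Mb bins on different chromosomes were ranked by their summed signal. A 1 Mb bin was eligible when at least 50% of its 40 kb bins had contacts, which left 2410 of 2482 bins and 2741712 pairs. The 500 pairs with the highest sum, 0.0182% of all eligible pairs, are described below and are called members. They were chosen on this signal, so the signal is given as a description and was not tested.

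C2C12 is an established line of wild-type mouse myoblasts, obtained by the study from ATCC and grown like its fibroblasts. The study used Hi-C of these cells beside embryonic fibroblasts with and without the lncRNA locus *Firre*, to ask how topological domains form. The 2 C2C12 libraries were made by in-situ ligation after HindIII digestion, and the authors pooled them into 1 matrix. There was therefore no spread between replicates for any value below, and no other condition to compare with. Cell-type markers could not be checked, because the matrix holds no expression.

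Hi-C joins DNA ends that lie close together in the nucleus, and most joined ends come from the same chromosome. Iterative correction (ICE) then rescales the matrix until all bins sum to a common total, which multiplies up the few contacts of a bin that was seldom sequenced. When parts of different chromosomes have been joined, contacts between them are densest at the breakpoint and decay away from it within a quadrant of the map, as contacts do along an intact chromosome. A balanced exchange makes a pair of derivative chromosomes and fills opposite quadrants, whereas a single derivative fills only 1. Sequences present in many copies, such as the satellite DNA at mouse centromeres, can also give contacts between chromosomes, because a read cannot always be placed at its true copy.

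Sequence of the bins that carried the most read pairs is shown first. The 3 members with the most read pairs joined 3 bins with each other, chr9:3000001-3040000, chr12:3080001-3120000 and chr2:98480001-98520000. In the chromosome 9 bin the sequence matched itself at a shift of 234 bases over 69.4% of positions, next to a median of 31.0% at other shifts, so it is a tandem repeat, of the same unit length as the mouse major satellite. The other 2 bins did not show this as a whole, with 28.6% at their best shift against a median of 27.5% on chromosome 2, and 26.97% against 26.20% on chromosome 12, but each held a stretch close to it. The 250 bases at chr9:3000378-3000627 (build NCBIM37, which is mm9, + strand) are followed by their best match in each of the other 2 bins, at chr12:3109872-3110121 (- strand) and chr2:98506828-98507077 (- strand), with capitals at bases that differ from chromosome 9.
Chromosome 9 bin: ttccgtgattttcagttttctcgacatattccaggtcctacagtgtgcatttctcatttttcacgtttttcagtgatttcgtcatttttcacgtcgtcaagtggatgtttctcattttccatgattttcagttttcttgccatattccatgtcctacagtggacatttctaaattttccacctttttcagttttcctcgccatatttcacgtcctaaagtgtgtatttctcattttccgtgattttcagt
Chromosome 12 bin: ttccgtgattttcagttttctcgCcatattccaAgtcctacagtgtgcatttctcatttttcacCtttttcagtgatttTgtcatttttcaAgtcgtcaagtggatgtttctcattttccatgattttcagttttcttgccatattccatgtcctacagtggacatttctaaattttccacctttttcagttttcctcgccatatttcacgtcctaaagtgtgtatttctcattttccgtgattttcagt
Chromosome 2 bin: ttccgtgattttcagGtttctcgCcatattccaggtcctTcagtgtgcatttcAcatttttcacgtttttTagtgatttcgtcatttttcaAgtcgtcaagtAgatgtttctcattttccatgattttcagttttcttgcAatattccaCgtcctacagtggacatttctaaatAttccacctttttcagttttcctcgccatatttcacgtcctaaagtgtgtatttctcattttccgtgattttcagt
The chromosome 12 stretch differed at 5 bases (98.0% identity) and the chromosome 2 stretch at 10 bases (96.0%). Only short ungapped matches were considered here, and chromosome 2 was searched with the 250 bases alone. The length shown was thus set by the search.

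Longer shared stretches were sought between the bins of each member's strongest 40 kb pair only. The longest was 21613 bases at 99.3% identity, between the first Mb with contacts of chromosomes 4 and 8. The first 200 bases of a HindIII fragment inside it are shown from chr4:3209440-3209639 and chr8:3018156-3018355 (both NCBIM37, + strand), with the HindIII site AAGCTT in capitals. They did not differ at any base.
Chromosome 4 start: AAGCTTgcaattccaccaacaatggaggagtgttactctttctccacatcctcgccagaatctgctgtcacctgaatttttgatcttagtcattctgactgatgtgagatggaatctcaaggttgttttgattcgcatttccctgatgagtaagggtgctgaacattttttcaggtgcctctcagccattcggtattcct
Chromosome 8 start: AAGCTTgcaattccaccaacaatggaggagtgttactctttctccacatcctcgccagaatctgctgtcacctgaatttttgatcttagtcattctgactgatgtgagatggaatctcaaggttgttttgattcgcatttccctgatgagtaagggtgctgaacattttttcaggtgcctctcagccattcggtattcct
A second shared stretch lay at the far ends of chromosomes 10 and 19, 1429 bases long at 95.1% identity. The 200 bases at chr10:129982564-129982763 and chr19:61232164-61232363 (NCBIM37, + strand) differed at 8 bases, shown in capitals in the chromosome 19 line.
Chromosome 10 end: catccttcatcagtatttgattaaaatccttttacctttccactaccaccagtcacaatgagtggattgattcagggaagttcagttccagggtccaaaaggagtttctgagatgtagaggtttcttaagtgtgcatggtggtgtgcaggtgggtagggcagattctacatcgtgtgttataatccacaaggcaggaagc
Chromosome 19 end: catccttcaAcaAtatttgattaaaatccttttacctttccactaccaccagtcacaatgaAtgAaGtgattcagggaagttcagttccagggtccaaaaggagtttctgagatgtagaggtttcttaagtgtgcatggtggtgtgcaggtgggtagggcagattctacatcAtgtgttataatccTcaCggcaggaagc

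The summed signal of the members ran from 74.8 to 710, with a median of 129. Over all eligible pairs the median was 0.510, and 46.6% of pairs had no contact. Next to the threshold, the last member (chr2:176000001-177000000 with chr10:94000001-95000000) had 74.824 and the first pair outside (chr15:7000001-8000000 with chr16:3000001-4000000) had 74.801. The signal thus ran through the threshold without a step.

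High signal was rarely many read pairs. ICE divides each count by a factor for each of its bins, so the counts could be recovered, and 99.9999% of the listed pairs came out within 0.01 of a whole number. The matrix held 23991963 recovered read pairs, 10.7% of them between autosomes, and 93.9% of the listed pairs between autosomes rested on 1 read pair. Of the 500 members, 274 rested on 1 read pair, 128 on 2, 37 on 3 and 27 on 4. Another 18 had between 5 and 9, and 16 had 10 or more. Among all eligible pairs 0.0912% had 10 or more read pairs. With so few reads the counting error was wide, and a single read pair has an exact 95% Poisson interval from 0.0253 to 5.57.

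**Figure D1:**
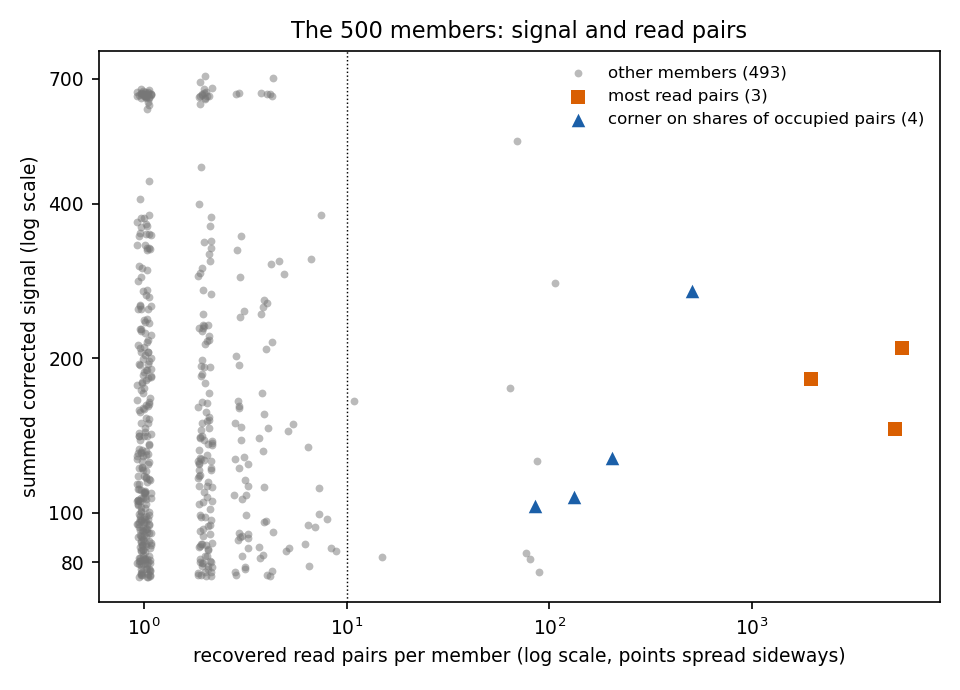
Summed corrected signal (y axis, log scale, no unit) against recovered read pairs (x axis, log scale) for the 500 members, 1 point each. Most points stand at 1 to 4 read pairs over the whole range of signal; the 3 pairs with the most read pairs (squares) and the 4 pairs with a corner (triangles) stand to the right of the line at 10 read pairs.

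In 475 members a single pair of 40 kb bins gave over 50% of the sum, and in 284 it was the only listed pair. The 500 pairs ranked next were alike, with 470. The share over all eligible pairs was not computed. Their mean was 0.935 read pairs, so these counts may not set the members apart. In 458 members the strongest pair of 40 kb bins was 1 read pair. The sparser of its bins had a median of 6 read pairs over the whole matrix, and the fuller bin a median of 587, next to 636 over all autosomal bins with contacts. The sparser bin had under 100 read pairs in 488 members and under 10 in 373, although only 1.46% of autosomal bins with contacts have under 100. In 51 members it had exactly 1, and in 50 members the contact took over 90% of that bin's whole signal. A summed signal of 600 or more occurred in 51 members, and 49 of them had such a bin. The whole signal of a bin had a median of 662, which is where the strongest members lie. Counts in the sparsest bins are the smallest whole numbers that the values allow and are lower bounds.

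The 10 strongest members had 1, 2 or 4 read pairs each, and none touched another member. The strongest, chr1:104000001-105000000 with chr2:175000001-176000000, had a signal of 710 from 2 read pairs. The next, chr4:121000001-122000000 with chr6:34000001-35000000, had 702 from 4 read pairs, and its fuller bin overlaps Cnot4, which encodes a subunit of the CCR4-NOT complex. The member at rank 3, with 690 from 2 read pairs, joined chr6:66000001-67000000 and chr7:21000001-22000000, and the 40 kb bins overlap the vomeronasal receptor genes Vmn1r36 and Vmn1r107. The others had signals from 660 to 671, with the hexokinase gene Hk1, the tachykinin receptor gene Tacr2, the calcium sensor gene Ncald and the ubiquitin ligase adaptor gene Spop in their fuller bins. In 9 of these 10 members over 90% of the 50-base words of the sparser bin occur again elsewhere in the genome. The member at rank 4 was the exception, with 2.57%, and its sparser bin overlaps Cdkn2a and Cdkn2b.

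The sparser bins differed from the other bins in sequence. Over the 282 distinct sparser bins a median of 99.7% of 50-base words occur again in the genome, against 11.0% in the 489 fuller bins and 5.77% in 599 bins taken as every 100th autosomal bin. More than 50% of words were repeated in 88.7% of sparser bins, 5.11% of fuller bins and 3.34% of every 100th bin. The number of HindIII sites was alike, with medians of 12, 13 and 13 per bin, and 5 sparser bins had none. Mostly unsequenced bases (N) made up 16 sparser bins, most of which were also mostly repeated: 252 of the 282 were in either class. Repeats and sparseness thus moved with membership, and their part in the signal was not tested.

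**Figure D2:**
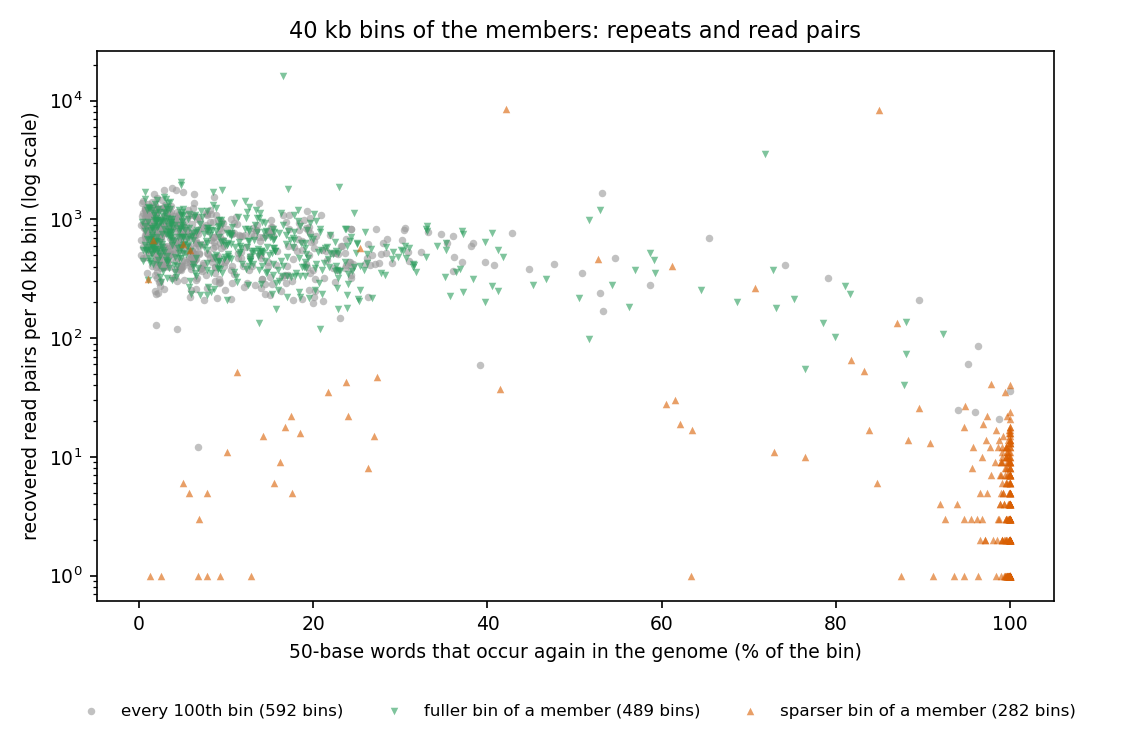
Recovered read pairs per 40 kb bin (y axis, log scale) against the percentage of its 50-base words that occur again in the genome (x axis), 1 point per bin. Sparser bins of members gather at the lower right, near 100% and mostly under 100 read pairs, while fuller bins lie with every 100th bin; the 592 points of the latter leave out bins that are also in a member.

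Sequence shared by a member's own bins was about as frequent as in the pairs ranked next. A stretch of at least 300 bases with at least 95% identity joined the bins of the strongest 40 kb pair in 118 members (23.6%), and in 131 of the 500 pairs ranked next (26.2%). Among the 16 members with 10 or more read pairs it was found in 6. No share over all eligible pairs was computed, so these shares cannot be called high or low. Between the satellite-like bins shown above, where only short matches were displayed, no stretch of this length and identity was found, so they are not in the count.

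Of the 488 members with a sparser bin under 100 read pairs, 439 had a bin of mostly repeated words, and in 47 the bin was neither mostly repeated nor mostly N. Runs of sparse bins with at least 1 member bin of mostly unrepeated words made 10 loci, which gave 64 members in all. The widest was chr4:111720001-113600000, over the *Skint* genes, immunoglobulin-like genes known for a role in epidermal T cells, with 30 members and a median of 30 read pairs per bin, and all 13 of its sparser bins of members were mostly unrepeated. The next, chr4:121440001-122200000, gave 15 members with a median of 5, but only 1 of its 7 such bins was mostly unrepeated. A stretch at chr6:129960001-130160000, over Klra6, Klra4, Klra8 and Klra9, which encode Ly49 receptors of natural killer cells, gave 6 members with a median of 11, and both of its bins were mostly unrepeated. The *Skint* and Klra loci thus had few reads although most words of these bins occur once in the reference.

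At some of these loci the depth fell and rose again abruptly. The chromosome 4 locus chr4:88920001-89120000 covers 5 bins and holds Cdkn2a (ENSMUSG00000044303.5, chr4:88920377-88940557, - strand) and Cdkn2b (ENSMUSG00000073802.4, chr4:88952198-88956941, - strand), neighbouring genes for inhibitors of cyclin-dependent kinases that are often lost in immortal cell lines. The 5 bins had 1, 1, 1, 40 and 1 read pairs, whereas the bin before had 436 and the bin after 284. Of the 4 bins with 1 read pair, those from 88960001 and 89000001 were 93.2% and 34.5% unsequenced bases (N) in the reference, and those from 88920001 and 89080001 were 0.25% and 0.0% N. Single bins showed such a fall too, chr2:22360001-22400000 in Myo3a (93.1% N) with 1 read pair between bins of 491 and 470, and chr12:58920001-58960000 (0.0% N) with 11 between 761 and 206. Missing reference sequence thus went with some of the empty bins but not with the outer bins of the chromosome 4 locus. The chromosome 4 locus gave 4 members, with chr15:60000001-61000000 (signal 671, 2 read pairs), chr3:86000001-87000000 (657, 1 read pair), chr1:65000001-66000000 (653, 4 read pairs) and chr1:56000001-57000000 (647, 1 read pair). Each of the 4 joined a different region, on 3 chromosomes. Loss of this DNA from the cells was not tested by another measurement.

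Members were scattered. Joined wherever their 1 Mb squares shared a side or a corner, 468 of 500 touched no other member, 32 formed 16 groups of 2, and no block of 4 or more existed. They spread over 111 pairs of autosomes. The fullest pair, chromosomes 3 and 7, had 22 members, followed by chromosomes 2 and 7, 4 and 7, and 7 and 10 with 15 each. The 5 fullest pairs together held 81 members (16.2%). Chromosome 7 took part in 187 members (37.4%, against 11.8% of eligible pairs) and chromosome 4 in 121 (24.2% against 12.6%), while chromosome 11 took part in 20 (4.0% against 9.94%). The sparser bin lay on chromosome 7 in 165 members, on chromosome 4 in 95 and on chromosome 14 in 55. The chromosomes with the most members were also those with the most sparser bins.

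**Figure D3:**
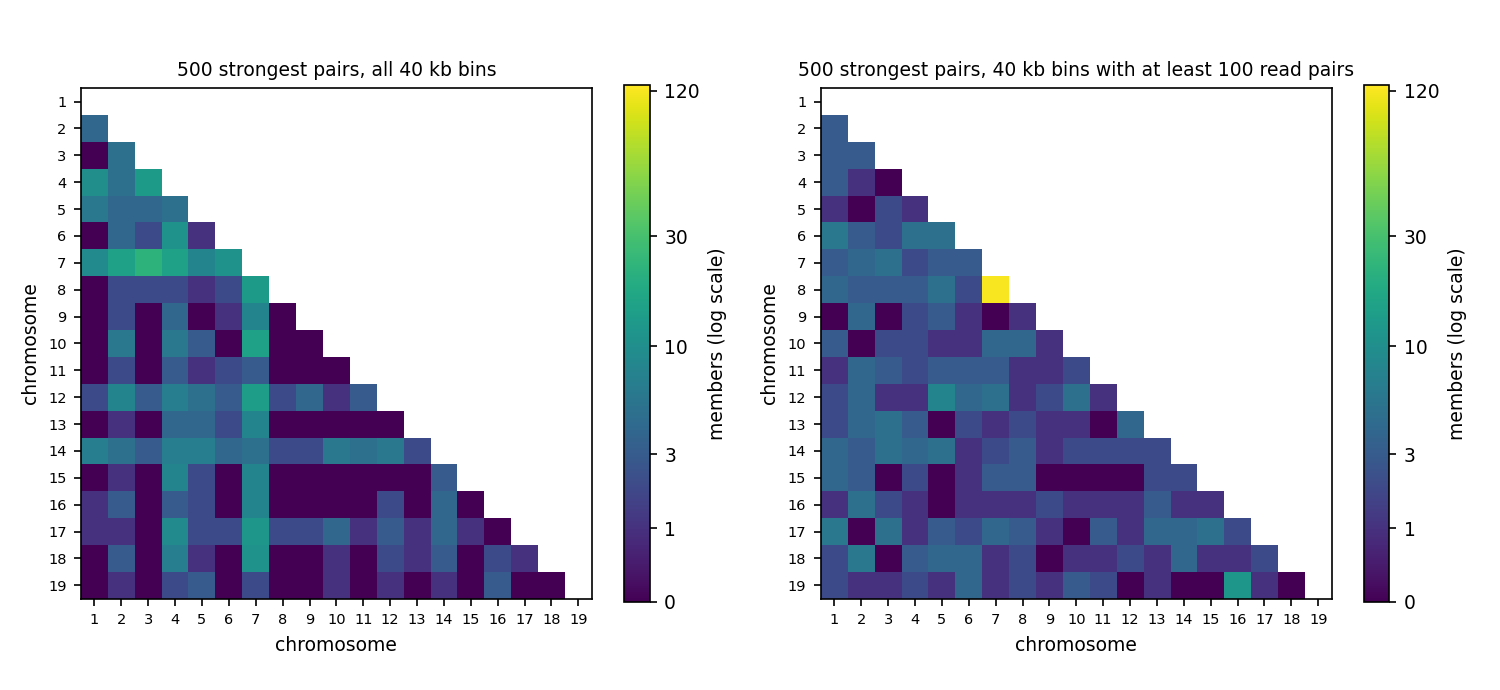
Members per pair of autosomes (colour, log scale) when all 40 kb bins count (left) and when 40 kb bins with under 100 read pairs are left out (right). On the left members form streaks along chromosomes 4, 7 and 14; on the right chromosomes 7 and 8 hold 120 of 500.

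The streaks came from single 1 Mb bins with partners on many chromosomes. There were 39 bins with at least 5 isolated members, and together they were part of 396 isolated members. The fullest was chr7:22000001-23000000 with 28 members, partners on 16 chromosomes and 44 read pairs in all. Of its 25 protein-coding genes 13 are Vmn1r genes, which encode vomeronasal receptors for pheromones. Its neighbour chr7:21000001-22000000 had 15 members and 20 Vmn1r genes among 26. Bins over Vmn2r genes, the other vomeronasal family, were chr7:7000001-8000000 with 17 members and 8 such genes of 13, and chr7:10000001-11000000 with 16 members and 7 of 11. In chr2:175000001-176000000, with 16 members, 17 of 18 protein-coding genes are predicted genes named Gm. Further bins with 14 to 16 members were chr7:33000001-34000000, chr4:121000001-122000000, chr5:94000001-95000000, chr7:8000001-9000000, chr7:23000001-24000000, chr14:3000001-4000000 and chr14:5000001-6000000. In 35 of the 39 bins the sparser 40 kb bins had a median of over 90% repeated words. The exceptions were the *Skint* bins chr4:111000001-112000000, chr4:112000001-113000000 and chr4:113000001-114000000, and chr6:129000001-130000000, which holds Klra6 and part of Klra4.

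Leaving out 40 kb bins with under 100 read pairs, an alternative chosen after seeing the data, replaced most of the list. Only 16 of the 500 strongest pairs were then shared with the members. The median rose from 1 to 17 read pairs, and chromosomes 7 and 8 held 120 of the 500. Blocks of at least 4 pairs appeared, 8 of them with 107 pairs, and 6 of the 8 lay between chromosomes 7 and 8. The largest had 37 pairs, from chr7:107000001-118000000 and chr8:81000001-89000000, with 20 to 205 read pairs each. The others were a block of 4 between chromosomes 5 and 12, with 27 to 85 read pairs, and a block of 4 between the starts of chromosomes 16 and 19, with 7 to 59. The rule for a corner, given below, was met by 2 of the 8 on the signal of all bins. On the share of 40 kb pairs with any read it was also met by 2.

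A corner was sought at each member in a map of 200 kb bins, as a point whose 3 Mb square in 1 quadrant had at least 3 times the mean of both squares beside it, and whose mean within 1 Mb was at least 2 times that at 4 to 6 Mb. On the signal 291 members met this rule, since 1 strong spot is enough. With the signal taken only over bins with at least 100 read pairs, 78 met it. On the share of 40 kb pairs with any read, over bins with at least 100 read pairs, and with at least 50 such pairs in the square, 4 members met it, and 113 could not be assessed, 1 of them with 10 or more read pairs. The 4 joined chr7:108000001-109000000 and chr8:88000001-89000000 (205 read pairs, exact 95% Poisson interval 178 to 235), chr7:107000001-108000000 and the same bin of chromosome 8 (132, 110 to 157), chr5:36000001-37000000 and chr12:78000001-79000000 (85, 67.9 to 105), and chr2:166000001-167000000 and chr18:38000001-39000000 (508, 465 to 554). The remaining members that could be assessed did not meet the rule by this measure.

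Between chromosomes 7 and 8 the contacts near the corner filled a quadrant, but the rule was met by a narrow margin. The quadrant had 3.34 times the share of occupied pairs of its fuller neighbour, and the rule was no longer met with squares of 5 Mb, at 5-fold or in a map of 400 kb bins. Placed to the nearest 40 kb, the corner lay at chr7:107840000 and chr8:88800000, with the contacts above it on chromosome 7 and below it on chromosome 8. The 480 kb square inside held 165 read pairs (140.8 to 192, exact 95% Poisson interval), the square beyond on chromosome 7 held 0, the square beyond on chromosome 8 held 9, and the square across held 0. A count of 0 allows up to 3 read pairs, which is a 1-sided limit. The edge was thus sharp on chromosome 7 and less so on chromosome 8. Farther out the quadrant beyond on chromosome 8 filled too, with a mean signal of 0.0238 against 0.0343 inside at 3.52 Mb. Within 40 kb of the corner lie Plekhb1 (chr7:107791406-107810928, - strand), which encodes a pleckstrin homology domain protein, and Fam168a (chr7:107855165-107990142, + strand), and on the chromosome 8 side there is no protein-coding gene.

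A fall from the corner was part of the rule that chose each corner, so the slopes here and for the other pairs are given as a description. Over 0.4 to 10 Mb of summed distance, the exponent was -1.26 (SE 0.13 over 13 distance classes), against -1.17 (SE 0.04) within chromosomes 7 and 8. Over 0.4 to 5 Mb it was steeper than within the chromosomes, -1.66 (SE 0.12) against -1.28 (SE 0.01), and with absent pairs left out it was flatter, -0.14 (SE 0.05) against -0.38 (SE 0.04). Whether the decay matched that within the chromosomes thus depended on the distances and pairs counted. From 0.4 Mb outwards the quadrant had between 9.24% and 27.6% of the signal within the chromosomes at the same distance, for example 22.5% at 0.979 Mb. These SEs cover the scatter of distance classes and not replicates.

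The contacts between chromosomes 7 and 8 reached far beyond the 2 members. Each stretch was drawn from these same values, as the run of 1 Mb windows around the corner over 3 times the chromosome's median rate. Short gaps were bridged, and rates were taken against up to 20 Mb of the other chromosome on the corner's side. The counts and ratios of windows thus follow from this choice and are a description. On chromosome 7 all 46 windows of 1 Mb from 107 to 153 Mb, near the chromosome's end, had over 3 times the median rate, with 14.6 read pairs per 1000 pairs of 40 kb bins, against 1.52 over the rest of the chromosome (9.64 times). On chromosome 8 all 20 windows from 81 to 101 Mb did, with 30.1 against 1.76 (17.1 times). The stretch on chromosome 8 thus ran on both sides of the corner, and from about 4.55 Mb outwards the quadrant beyond on chromosome 8 had about as much signal as the corner's own. Depth moved with it. The median 40 kb bin had 1188 read pairs inside the chromosome 8 stretch against 573 outside, and 675 against 440 on chromosome 7. Whether a change of copy number accompanied these contacts was not tested.

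Between chromosomes 5 and 12 the corner was cleaner, at 27.4 times its fuller neighbour, and met the rule under each of these settings. It lay at chr5:36400000 and chr12:78240000, with the contacts below it on chromosome 5 and above it on chromosome 12. The 480 kb square inside held 68 read pairs (52.8 to 86.2), and the other 3 squares held 1, 1 and 0. Sorcs2 (chr5:36359829-36740788, - strand), which encodes a sorting receptor of neurons, spans the chromosome 5 side, and no protein-coding gene lies within 40 kb on chromosome 12. The exponent was -1.39 (SE 0.15) against -1.17 (SE 0.03) within the chromosomes over 0.4 to 10 Mb, -1.78 (SE 0.18) against -1.26 over 0.4 to 5 Mb, and -0.22 (SE 0.09) against -0.36 (SE 0.04) with absent pairs left out. The level was 7.99% of that within the chromosomes at 0.979 Mb and 11.1% at 9.79 Mb. Contacts were raised over 33 of 34 windows from 3 to 37 Mb of chromosome 5, which is its start, and over 31 of 41 windows from 78 to 119 Mb of chromosome 12, at 6.84 and 5.21 times the rate of the rest. These stretches were drawn from the same values in the same way, so the counts and ratios are a description. Median depth was 628 read pairs per bin inside against 531 outside on chromosome 5, and 741 against 582 on chromosome 12.

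**Figure D4:**
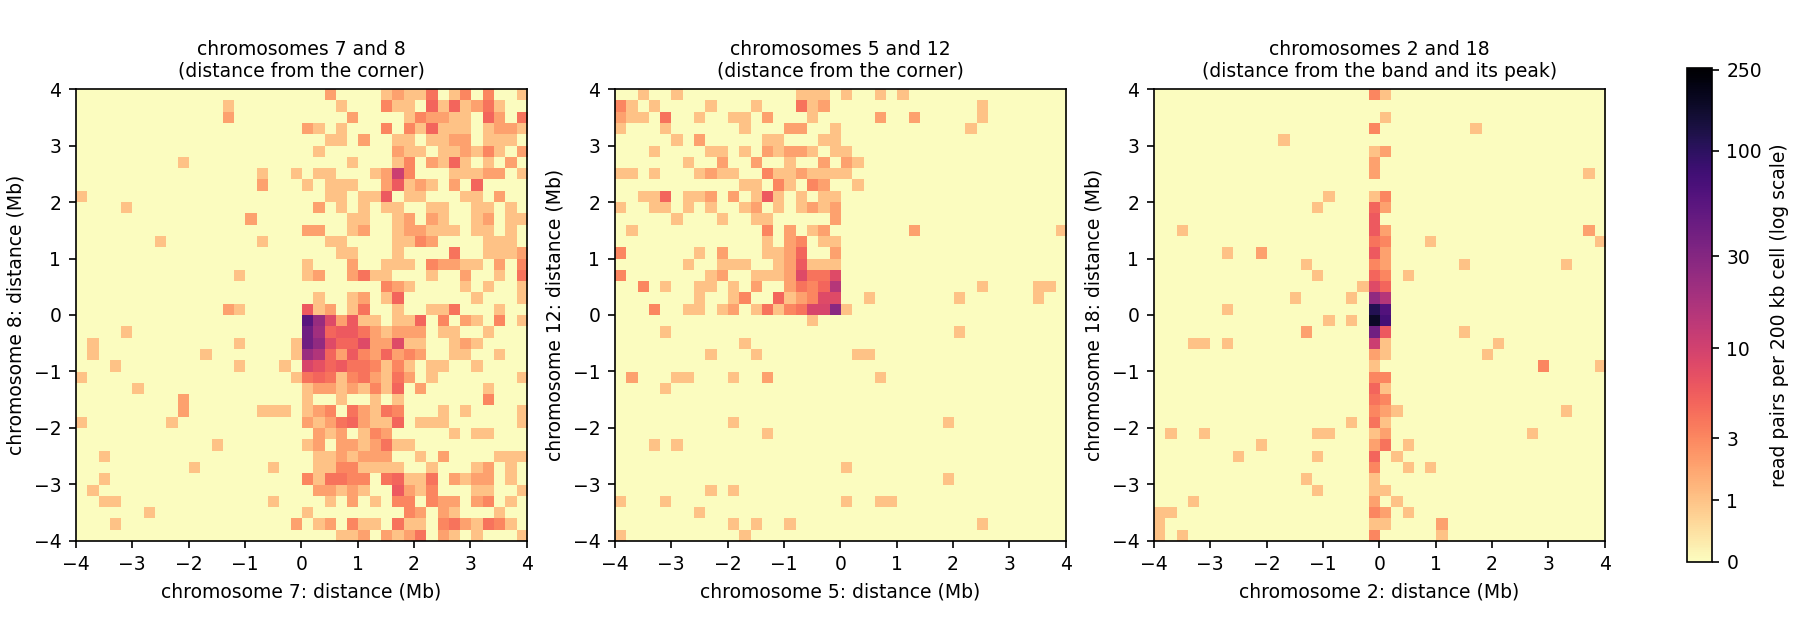
Read pairs per 200 kb cell (colour, log scale) within 4 Mb of the corner of chromosomes 7 and 8, the corner of chromosomes 5 and 12, and the peak of chromosomes 2 and 18; axes are distances in Mb. The first 2 maps fill a quadrant from the corner, and the last is a narrow vertical band. Farther from the corner the first map also fills the quadrant beyond it on chromosome 8.

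**Figure D5:**
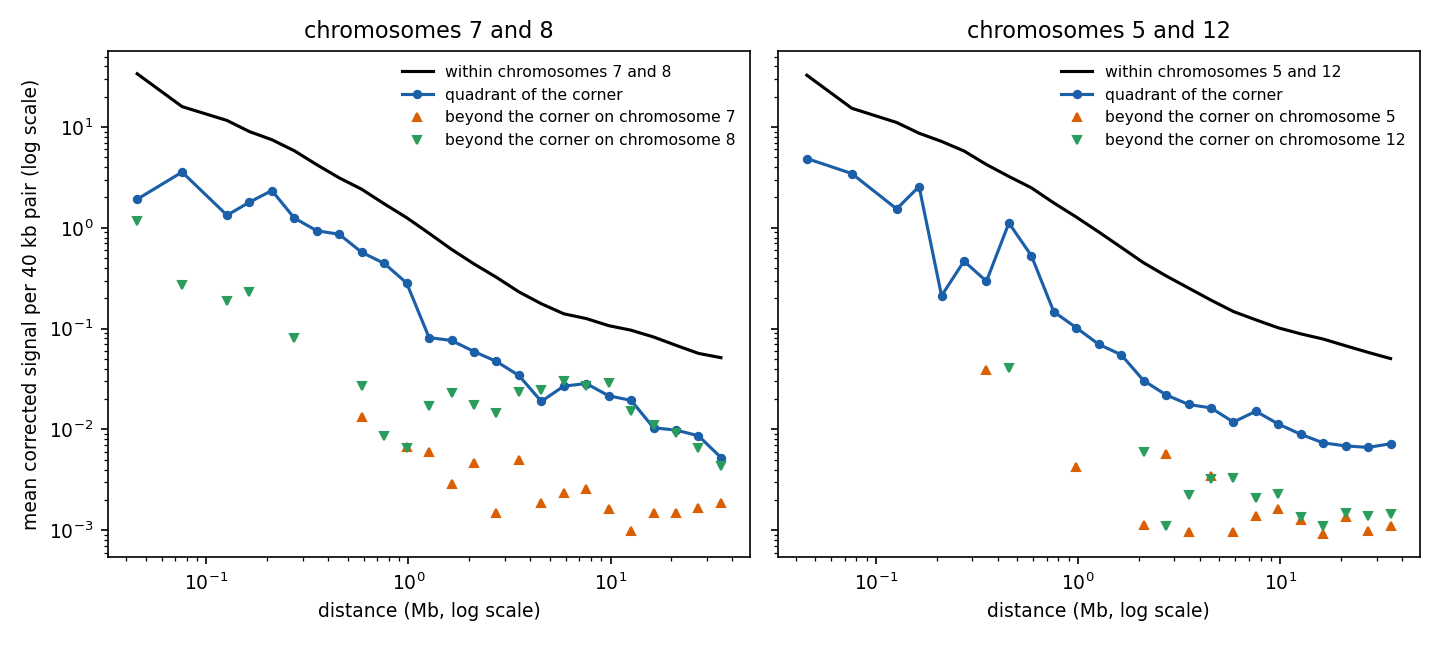
Mean corrected signal per pair of 40 kb bins (y axis, log scale) against distance (x axis, Mb, log scale) for the quadrant of each corner (blue), the same chromosomes' own contacts (black) and the quadrants beyond the corner (triangles); means of 0 cannot be drawn on a log axis. Both quadrants fall with distance and lie below the black line.

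The member of chromosomes 2 and 18 met the corner rule but had another shape. Nearly all of its 508 read pairs came from 4 adjacent bins of chromosome 2, chr2:166760001-166920000 (160 kb), with 67, 280, 77 and 81 of them. The 4 bins before held 1 read pair and the 4 after held 0. On chromosome 18 the contacts peaked at chr18:38320001-38360000, with 70 read pairs, and fell on both sides. Beside the peak bin, within 0.2 Mb of it, there were 241 read pairs on the lower and 115 on the upper side, and from 2 to 10 Mb 46 and 47. The fall was thus uneven near the peak and even farther out. The pattern was therefore a band that is narrow on chromosome 2 and 2-sided on chromosome 18, and not a quadrant.

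Along this band the contacts did not end. Beyond 20 Mb from the peak it still held 138 read pairs, 29.0 per 1000 pairs of 40 kb bins. The 4 bins had 585, 2377, 614 and 580 read pairs in all, next to a median of 556.5 in the 20 bins around, so the bin with the most contacts was also the deepest. The band overlaps Cse1l, a nuclear export factor of importins, Stau1, an RNA-binding protein of mRNA transport, the RNA helicase gene Ddx27, Znfx1 and 1500012F01Rik, and the peak overlaps Pcdh1, a protocadherin. The exponent from the corner that the rule placed, -2.44 (SE 0.24) against -1.21 within the chromosomes, was taken from a point off the band and describes no quadrant.

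The other 12 members with 10 or more read pairs lay mostly at chromosome starts. The most read pairs were between the 3 bins shown above, of which only that of chromosome 9 is a tandem repeat throughout, with 5483 between chromosomes 2 and 9, 5071 between chromosomes 2 and 12 and 1960 between chromosomes 9 and 12. Nearly all came from 1 pair of 40 kb bins each, 5481, 5069 and 1957. These bins had 16167, 8389 and 8532 read pairs in all on chromosomes 2, 9 and 12, and 65.3%, 88.7% and 82.3% of them were with the other 2. The 3 members ranked 144, 217 and 172 by signal, below many members of 1 read pair.

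Chromosome 4 took part in 4 further pairs of chromosome starts, through chr4:3000001-4000000. Its read pairs were 104 with chromosome 6, 88 with chromosome 8, 80 with chromosome 13 and 90 with chromosome 15, each with the bin from 3000001 to 4000000. Shared sequence was sought only between the bins of each member's strongest 40 kb pair by signal. In these 4 members it was found, with longest stretches of 6133, 21613, 2684 and 14513 bases at 98.6%, 99.3%, 95.3% and 97.9% identity. The bins searched held 23, 1, 32 and 16 of the read pairs. The start of chromosome 16 had 66 read pairs with the start of chromosome 19. The bins searched there held 2 of them and shared 17294 bases at 99.1%. With chromosome 18 it had 59 read pairs, and with chr19:26000001-27000000 14, without a shared stretch in the bins searched. Those bins held 1 of the 59 and 2 of the 14, and the other bins were not searched. The ends of chromosomes 10 and 19 had 81 read pairs, 37 of them in the strongest 40 kb pair. Between chr3:145000001-146000000 and chr7:67000001-68000000 there were 10 read pairs. Shared sequence was thus found in the searched bins of 6 of these members, and its part in their contacts was not tested.

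Positions and contents that did not enter the choice are given beside all eligible pairs, without a test, because pairs share bins. Both bins lay within 5 Mb of a chromosome end in 15 members (3.0%), against 0.747% of eligible pairs. Both lay at the first 5 Mb, the centromere side of mouse chromosomes, in 11 (2.2% against 0.156%), and both at the last 5 Mb in 1 (0.2% against 0.221%). In 133 members (26.6% against 15.8%) only 1 bin was near an end. Of the 16 members with 10 or more read pairs, 8 had both bins near an end, 7 at the start and 1 at the last 5 Mb. Of the other 484 members 7 had both bins near an end, so such pairs were concentrated among the members with many reads.

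Compartments were taken from contacts within each chromosome, with A the gene-rich and B the gene-poor side. Both bins were in B in 339 members (67.8%, against 47.5% of eligible pairs), 1 in A and 1 in B in 148 (29.6% against 42.9%), and both in A in 13 (2.6% against 9.66%). Among the pairs ranked next, 74.0% had both bins in B. On chromosome 13 the sides differed little in genes, 7.88 against 7.11 per bin. Members had a median GC content of 40.9% against 41.7%, and 8 against 6 protein-coding genes per Mb.

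Receptor genes of smell and pheromone sensing, which stand in large arrays of similar copies, were frequent in the members. At least 1 bin held an olfactory or vomeronasal receptor gene in 187 members (37.4%, against 10.3% of eligible pairs), and both bins did in 10 (2.0% against 0.262%). The pairs ranked next had 38.6%, and 8 of the 16 members with 10 or more read pairs had such a gene. Histone cluster genes were in 4 members (0.8% against 0.584%). Some chromosomes carry nucleolus organizers, the arrays of ribosomal RNA genes, in common laboratory mice. Both chromosomes were of this kind in 10 members (2.0% against 3.09%). Whole chromosomes were counted, and the organizers of C2C12 were not examined. Receptor genes thus stood further above their share of all pairs than histone clusters, and pairs of such chromosomes lay below theirs. The 1 Mb bins with receptor genes include the repeated bins of chromosome 7 described above, and the part of each was not tested.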

How the data were processed

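Hi-C of C2C12 cells was analysed, and the RNA-seq and ChIP-seq samples of the study were not used here. Per the methods, the authors aligned and filtered read pairs on mm9 in HiC-Pro 2.7.8. They deposited 1 matrix of the contact signal in 40 kb bins, from both libraries and after iterative correction. The file lists each pair of bins in both orders, and 1 order was kept. Read pairs were recovered by solving for the factor of each bin, with which the values become whole, and intervals on them are exact Poisson intervals for counting error only. Sums, blocks, corners and slopes were computed with NumPy 2.4.6, pandas 2.3.3 and SciPy 1.17.1 and first tested on simulated maps, repeated 50-base words were counted with numba 0.67.0, shared sequence was searched with blastn 2.17.0 at a minimum of 300 bases and 95% identity, and plots were drawn with matplotlib 3.10.9. Reference sequence and genes were those of NCBIM37, and the last bin of 19 of 19 autosomes ended at the reference length. With 1 pooled matrix no test was made.

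Regions were named by a rule: the 10 strongest members, the strongest isolated members, and 1 Mb bins with at least 5 isolated members. Genes named by it overlap the bins beside a corner or the strongest 40 kb pair of a member. Outside this rule, the genes of the band on chromosome 2, of the sparse loci and of whole 1 Mb bins, the members with 10 or more read pairs, the sparse loci with mostly unique sequence and the alternatives on read pairs were added after their values were seen. Members and lists were chosen with earlier results of these data known.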

Additional observations from a re-analysis of the deposited data

How the results depend on the processing

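The number of chromosome pairs with members (111) stayed between 94 and 148 under the alternatives tried. With compartments from 500 kb bins, which assigned 331 members, the shares with both bins in B, 1 in each and both in A were 74.0%, 23.0% and 3.02%. Among the eligible pairs assigned they were 48.2%, 42.5% and 9.34%. The number of members in blocks of at least 4, which was 0, became 4 with at least 90% of the 40 kb bins in contact, 6 with 1000 pairs and 123 without the strongest 40 kb pair of each member. It became 107 and 164 when bins with under 100 or 300 read pairs were left out and 239 when pairs were ranked by read pairs, of which chromosomes 7 and 8 then held 214; these 3 were chosen after seeing the data. Blocks with a corner on the signal, also 0, became 3 without the strongest pair, 2 and 3 without the sparse bins, and 3 by read pairs. The map used for this kept all bins, also the sparse ones. On the share of occupied pairs over bins with at least 100 read pairs they were 3, 2 and 4, and 3. The decay exponents were -1.66 (chromosomes 7 and 8) and -1.78 (5 and 12) over 0.4 to 5 Mb. With absent pairs left out they were -0.14, -0.22 and, for 2 and 18, -0.52, against -0.38, -0.36 and -0.41 within the chromosomes. Members with both bins near an end rose from 15 to 36 within 10 Mb of it (7.2% against 2.74% of eligible pairs). Members with a corner on occupied pairs were 4, and 4 at 2-fold. Squares of 2 Mb left 3 (2 and 18 lost), squares of 5 Mb left 2 (both of 7 and 8 lost), and 5-fold and 400 kb bins each left 1 (5 and 12). No paired analysis was possible because the 2 libraries are pooled into 1 matrix.

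The depth limits what can be said of single members. A count of 3 read pairs has an interval from 0.619 to 8.77, counts in the sparsest bins are lower bounds, and the count expected for a pair with a sparse bin was not computed.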

Other observations

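Ranked by read pairs, 116 of the 500 strongest pairs contained chr11:3000001-4000000, with chromosomes 6, 9 and 8 giving 18, 16 and 15 pairs with chromosome 11. After bins with under 100 read pairs were left out, chr16:3000001-4000000 was part of 18 of the 500 pairs, and chromosomes 16 and 19 held 12. These counts were looked at after the data were seen, and no cause was tested.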
